A study of Mus musculus with 6 samples.

Results

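Transcripts of 7 subunit genes of the GABA-A receptor, namely Gabra2, Gabra3, Gabra4, Gabra5, Gabrb1, Gabrb2 and Gabrg3, were compared over 3 sorts of mouse retinal ganglion cells (RGCs), whose axons form the optic nerve. The genes were chosen by name, with earlier results of these data known, and they are 7 of 18193 genes measured. Each gene is represented by the probe sets (groups of array probes for a transcript) that the platform annotation assigns to it alone, 23 in all, and the brightest of them on average over the arrays, on the log2 scale, leads. The study hybridised 6 Affymetrix arrays, 2 in each group, with RNA of papain-dissociated retinas of C57BL/6 mice at postnatal day 6. The Hb9 group holds cells that carry GFP and Thy1 and are named Hb9 RGCs in the labels, the Drd4 group holds GFP and Thy1 positive cells named Drd4 RGCs, and the Thy1 group holds Thy1 positive cells with no GFP requirement stated. All groups share the antibody staining for Thy1, a surface protein of RGCs, and the 2 rounds of RNA amplification, and replicates came from different litters. GFP in these lines is driven by regulatory sequence of Hb9 or Drd4, and both lines are known to label direction-selective ganglion cells of the ON-OFF kind (ooDSGCs). The sources used here do not give the number of animals behind an array.

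The GABA-A receptor is a chloride channel made of subunits around a pore, usually alpha, beta and gamma subunits together. GABA binds between beta and alpha subunits, and benzodiazepines bind between alpha and gamma subunits, so the subunits in a receptor set its kinetics, its place on the cell and its drug sensitivity. In the retina, ooDSGCs receive asymmetric GABA release from starburst amacrine cells, and this inhibition is known to underlie their direction selectivity. In young neurons the chloride gradient that decides whether GABA depolarises or hyperpolarises depends on the importer NKCC1, encoded by Slc12a2, and the exporter KCC2, encoded by Slc12a5. The array reads RNA, not assembled receptors.

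The arrays were closely matched in scale, with median intensities of 45.5 to 47.7, and replicate arrays correlated at 0.988 to 0.992 across genes, which are not independent replicates. The highest of 27 Bacillus control probe sets served as a guide to background and stood at log2 4.95 to 5.38. All 14 RGC markers measured were above it on at least 1 array. Their summed intensity was 34990 to 35803 in Hb9, 33084 to 34052 in Drd4 and 32384 to 32574 in Thy1, and their median log2 difference was -0.03 as Hb9 minus Thy1 and 0.09 as Drd4 minus Thy1. Against Thy1, 1 of the 14 was higher in Hb9, while in Drd4 3 were higher and 2 lower, and in Hb9 against Drd4 1 was higher and 1 lower. The marker lower in Drd4 by the most was Isl1, a transcription factor gene of part of the RGCs, with means of 9.69 in Drd4 and 11.43 in Thy1. Gad1 and Slc32a1, which make and package GABA in amacrine cells, were at or below the background guide on every array, as were Tfap2b and 4 of 5 starburst amacrine markers. The other 6 of 9 amacrine markers were above it on at least 1 array. Gad2, which also makes GABA, read 5.77 and 6.27 in Hb9, 6.64 and 5.93 in Drd4, and 6.63 and 6.21 in Thy1. The summed amacrine list was 3305 to 4371 in Hb9, 4322 to 4980 in Drd4 and 3091 to 4100 in Thy1. Calb2 was by far the brightest gene of that list, so the sum mostly follows Calb2. It read 11.95 and 11.49 in Hb9, 11.90 and 12.15 in Drd4, and 11.35 and 11.83 in Thy1. Of 9 amacrine and 5 starburst markers 0 passed limma in any comparison, and at an unadjusted p under 0.05 there were 1 amacrine and 1 starburst marker for Hb9 against Thy1. Signals of microglia, vessel wall and dividing cells, and of immediate early genes, were lower in the GFP sorts than in Thy1. Of 12 microglial markers 11 fell in Hb9 and 11 in Drd4, with sums of 1689 to 2037 in Hb9, 1074 to 2977 in Drd4 and 6671 to 11497 in Thy1. Of 12 vessel wall and endothelial markers 5 fell in Hb9 and 6 in Drd4, with sums of 1762 to 2167 in Hb9, 457 to 1342 in Drd4 and 8140 to 9230 in Thy1, and Cldn5, Pecam1 and Tek were at background throughout. Of 9 markers of dividing cells 5 fell in Hb9 and 6 in Drd4, and of 11 immediate early genes 4 fell in Hb9 and 5 in Drd4. Against Thy1, 2 of 10 Muller glia markers were lower in Hb9, and in Drd4 2 were lower and 1 higher. Of 5 horizontal cell markers 1 was lower in Hb9 and 2 in Drd4, of 7 bipolar markers 1 was higher in Hb9, and of 4 astrocyte markers 1 was lower in Drd4. No photoreceptor marker of 9 passed, with 0 in Hb9 and 1 in Drd4 at an unadjusted p under 0.05. These shifts stand beside every comparison with Thy1 below, and their part in the results was not tested. Between Hb9 and Drd4, 0 microglial and 0 vascular markers passed limma at an adjusted p under 0.05, and 1 and 3 had an unadjusted p under 0.05. In that comparison 1 dividing cell marker was higher, and of the Muller glia markers 1 was higher and 1 lower. Over all genes 6.71% were called in Hb9 against Thy1, 5.47% in Drd4 against Thy1 and 6.12% in Hb9 against Drd4. In such bulk RNA, fewer cells of a type and less RNA per cell cannot be told apart.

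Upstream sequences are shown for 3 members, Gabra4 and Gabrb1 because they start head to head and both rose in Hb9, and Gabrg3 because it had the largest differences. All 7 members matched the RefSeq promoter table (build GRCm38.p6), with 11 windows running from 250 bases before to 50 after a start. The starts of Gabra4, on the minus strand, and Gabrb1, on the plus strand, lie 387 bases apart, so that the 5′ ends of these genes overlap. Gabrb1 has a further RefSeq start, which is not shown. Capitals mark matches, on either strand, to a GC box (GGGCGG) or a CCAAT box (CCAAT). No match overlaps another. The windows are Gabra4 at chr5:71658259-71658558 on the minus strand, Gabrb1 at chr5:71657671-71657970 on the plus strand and Gabrg3 at chr7:57387166-57387465 on the minus strand.
Gabra4: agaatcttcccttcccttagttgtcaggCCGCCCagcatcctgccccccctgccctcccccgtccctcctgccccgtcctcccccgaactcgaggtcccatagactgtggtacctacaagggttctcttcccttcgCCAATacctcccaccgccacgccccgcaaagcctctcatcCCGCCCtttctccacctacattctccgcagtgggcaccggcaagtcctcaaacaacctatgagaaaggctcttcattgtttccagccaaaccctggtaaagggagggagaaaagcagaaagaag
Gabrb1: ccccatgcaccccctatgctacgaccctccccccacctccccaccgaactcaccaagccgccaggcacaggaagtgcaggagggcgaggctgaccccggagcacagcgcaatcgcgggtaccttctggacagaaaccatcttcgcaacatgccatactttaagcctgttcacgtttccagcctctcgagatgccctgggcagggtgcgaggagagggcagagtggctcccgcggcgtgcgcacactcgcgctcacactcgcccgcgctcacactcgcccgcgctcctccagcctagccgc
Gabrg3: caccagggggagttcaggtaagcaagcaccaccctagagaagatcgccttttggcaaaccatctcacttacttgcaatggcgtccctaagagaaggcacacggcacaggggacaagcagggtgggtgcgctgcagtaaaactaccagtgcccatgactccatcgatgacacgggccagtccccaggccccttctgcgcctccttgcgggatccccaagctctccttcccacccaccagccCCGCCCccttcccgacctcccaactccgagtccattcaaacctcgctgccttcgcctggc
The Gabra4 window holds 2 GC boxes and 1 CCAAT box, the Gabrg3 window holds 1 GC box, and the Gabrb1 window shown holds neither. Of 32851 RefSeq windows of this length, 35.7% hold a GC box and 37.4% a CCAAT box. A TATA box (TATAAA) was found in 13.6% of windows and a cAMP response element (TGACGTCA) in 1.79%, and in none of the 3 windows shown. In RefSeq's gene order Gabra4 and Gabrb1 are neighbours, and so are Gabrg3 and Gabra5.

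The groups were compared with limma on log2 intensities, with Benjamini-Hochberg adjustment of the p-values across all 18193 genes. Errors of differences are standard errors from that model. Against the Thy1 sort, 4 of 7 members were higher in Hb9 cells (Gabra5, Gabra3, Gabra4 and Gabrb1) and 0 were lower (1 at an unadjusted p under 0.05), where 6.71% of all genes were called, 3.52% higher and 3.19% lower. That balance depended on the scaling, with 457 genes higher and 579 lower under quantile normalisation and 854 higher and 536 lower when arrays were centred on their medians. In Drd4 cells 2 of 7 were higher (Gabrg3 and Gabra5) and 0 lower (1 at an unadjusted p under 0.05), where 5.47% of all genes were called, 1.51% higher and 3.96% lower. Between the lines, Hb9 cells had more Gabra3 and Gabra4 and less Gabrg3 than Drd4 cells, where 6.12% of all genes were called, 4.06% higher and 2.06% lower. The arrays of both groups did not overlap in 6 of 7 members for Hb9 against Thy1, 6 for Drd4 against Thy1 and 4 for Hb9 against Drd4, where this held for 54.2%, 41.1% and 49.7% of all genes. Of the 23 member probe sets 4 were called in Hb9 against Thy1, all higher, where 7.12% of all probe sets were called, 2.99% higher and 4.13% lower. In Drd4 against Thy1 4 were called, all higher, where 4.43% of all probe sets were called, 1.32% higher and 3.11% lower. In Hb9 against Drd4 2 were higher and 3 lower, where 7.21% were called, 3.56% higher and 3.65% lower. The median member difference was 0.73 as Hb9 minus Thy1, 0.54 as Drd4 minus Thy1 and 0.19 as Hb9 minus Drd4, beside medians over all genes of 0.04, 0.02 and 0.04. The members were chosen with earlier results of these data known, so the shares beside their counts are a description and not a test. The Hb9 and Drd4 comparisons use the same Thy1 arrays. All 7 leading probe sets were above the background guide on every array, so no member difference rests on a floor. With 2 arrays a group the smallest p of an exact permutation test is 0.333, and none was run.

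**Figure D1:**
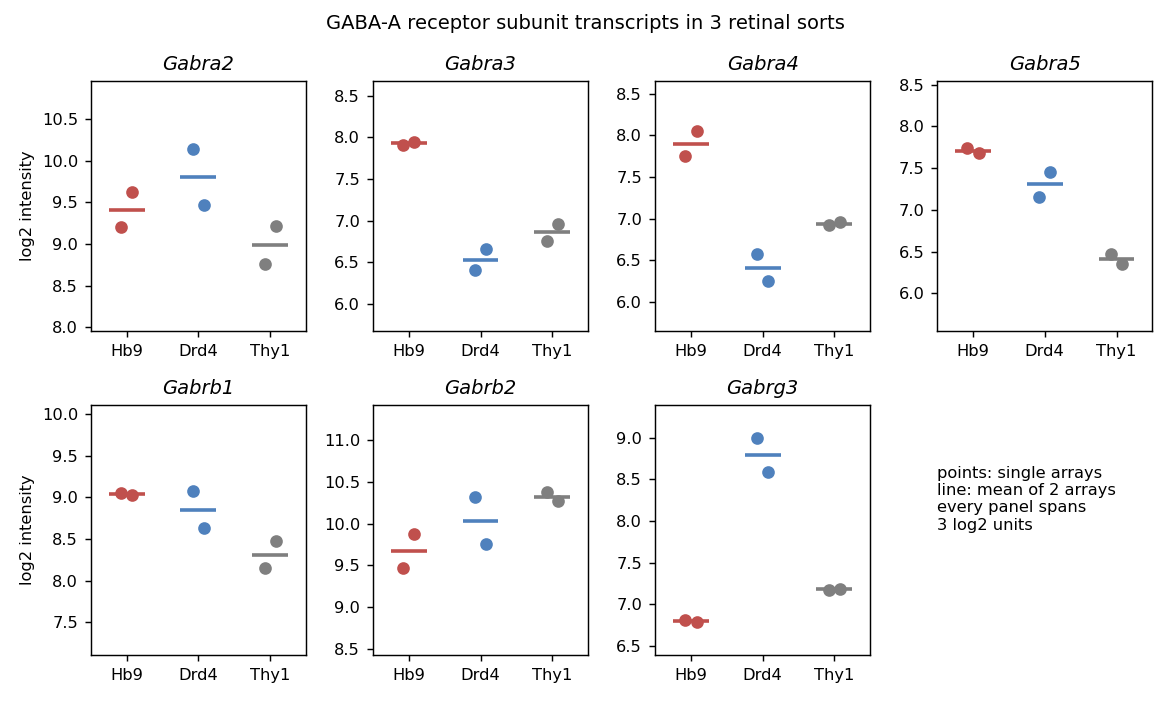
Log2 intensity of the leading probe set of each member on each array (points) with the mean of 2 arrays (line) in Hb9, Drd4 and Thy1. Each panel spans 3 log2 units, and only changes between groups within a panel can be read, since levels of different probe sets are not comparable. Gabra3 and Gabra4 are highest in Hb9, Gabra5 is lowest in Thy1, and Gabrg3 is highest in Drd4.

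Among the alpha subunits, Gabra5 was the member that was higher in both lines. Gabra5 encodes a subunit known for extrasynaptic, tonically active receptors in the hippocampus. Its log2 intensity was 7.74 and 7.68 in Hb9, 7.16 and 7.46 in Drd4, and 6.47 and 6.35 in Thy1. The 3 groups do not overlap, with Hb9 at the top and Thy1 at the bottom. Hb9 exceeded Thy1 by 1.30 ± 0.16 (2.46-fold, adjusted p = 0.00215 in limma), a call kept in all 16 alternative settings. Drd4 exceeded Thy1 by 0.89 ± 0.16 (1.86-fold, adjusted p = 0.00849 in limma), which no longer passed without Drd4 replicate 2 (adjusted p = 0.0615) or without Thy1 replicate 2 (adjusted p = 0.0578). The difference between the lines, 0.40 as Hb9 minus Drd4 with a 95% interval of 0.04 to 0.76 before adjustment, did not pass (adjusted p = 0.198 in limma). Gabra5 has 1 probe set, so no other probe set of the gene can be set beside it.

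Gabra3 and Gabra4 had the same order of groups, with Hb9 highest, Thy1 between and Drd4 lowest, and in neither gene do neighbouring groups overlap. Gabra3 is an X-linked alpha subunit gene known from developing neurons and from monoaminergic neurons of the adult brain. Its leading probe set read 7.91 and 7.94 in Hb9, 6.41 and 6.66 in Drd4, and 6.76 and 6.96 in Thy1. Hb9 exceeded Drd4 by 1.39 ± 0.16 (2.63-fold, adjusted p = 0.000752 in limma) and exceeded Thy1 by 1.07 ± 0.16 (2.10-fold, adjusted p = 0.00525 in limma). Drd4 stood at -0.33 ± 0.16 against Thy1, which did not pass (adjusted p = 0.412 in limma). The other Gabra3 probe set was at background on all 6 arrays and adds no information, and averaging it in took Hb9 minus Thy1 to 0.50 (adjusted p = 0.0622) and Hb9 minus Drd4 to 0.74 (adjusted p = 0.0167).

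Gabra4 encodes the alpha subunit that, with the delta subunit, forms benzodiazepine-insensitive extrasynaptic receptors in the thalamus and dentate gyrus. It read 7.75 and 8.05 in Hb9, 6.57 and 6.25 in Drd4, and 6.92 and 6.96 in Thy1. Both Hb9 arrays lie above every other array, and both Drd4 arrays lie below. Hb9 exceeded Drd4 by 1.49 ± 0.17 (2.81-fold, adjusted p = 0.000758 in limma), which held in all 16 alternatives. Hb9 exceeded Thy1 by 0.96 ± 0.17 (1.95-fold, adjusted p = 0.0118 in limma), a call lost without Hb9 replicate 2 (adjusted p = 0.0818) or Thy1 replicate 1 (adjusted p = 0.0735). As Drd4 minus Thy1 the difference was -0.53 ± 0.17 (adjusted p = 0.145 in limma). A dimmer Gabra4 probe set, above background on 2 of 6 arrays, did not pass, with 0.40 as Hb9 minus Thy1 and 0.37 as Hb9 minus Drd4. The delta subunit gene Gabrd, its usual partner, was above background on 1 of 6 arrays and passed in no comparison.

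Gabra2 had no difference past the threshold. The alpha2 subunit is known from mouse retina as the alpha subunit at the GABA synapses onto direction-selective ganglion cells. Its leading probe set read 9.20 and 9.62 in Hb9, 10.14 and 9.47 in Drd4, and 8.76 and 9.22 in Thy1. Hb9 overlaps both other groups, and the Drd4 arrays lie above the Thy1 arrays. Drd4 minus Thy1 was 0.82 ± 0.24, with a 95% interval of 0.27 to 1.36 before adjustment (adjusted p = 0.104 in limma). That difference passed without Drd4 replicate 2, the lower of that pair (1.15, adjusted p = 0.0168), and was 0.48 without Drd4 replicate 1 (adjusted p = 0.431). Hb9 minus Thy1 was 0.42 ± 0.24, with an interval of -0.12 to 0.97, and Hb9 minus Drd4 was -0.39 ± 0.24, with an interval of -0.94 to 0.15. Of the 4 other Gabra2 probe sets 3 were above background on all arrays and 1 on none, and in none of the 3 comparisons did any of them pass.

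**Figure D2:**
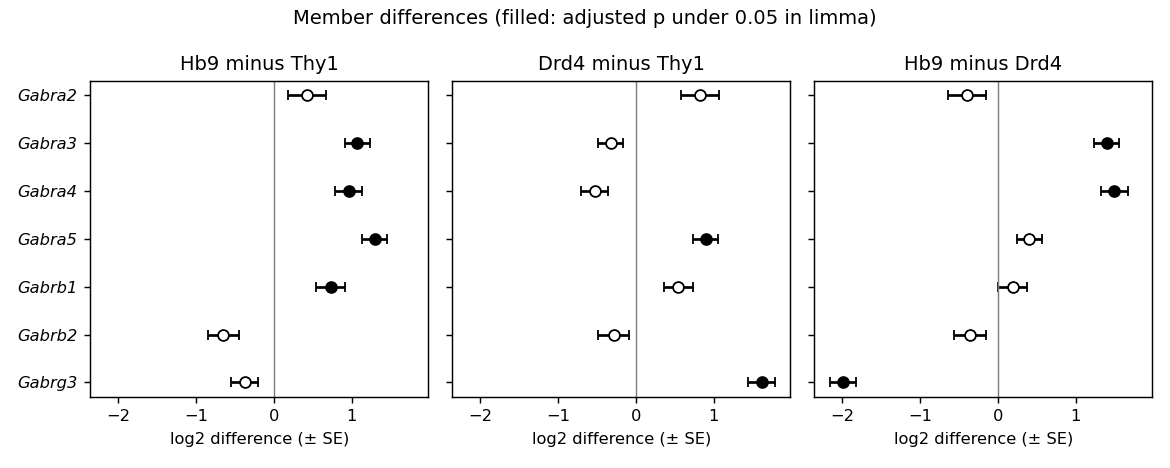
Log2 difference of each member in the 3 comparisons, with bars for the limma standard error. Filled points passed at an adjusted p under 0.05, namely 4 members as Hb9 minus Thy1, 2 as Drd4 minus Thy1 and 3 as Hb9 minus Drd4.

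The beta subunits carry part of the GABA site and are needed for assembly at the cell surface. Gabrb1 read 9.04 and 9.03 in Hb9, 9.07 and 8.63 in Drd4, and 8.15 and 8.47 in Thy1. Hb9 and Drd4 overlap each other, and both lie above Thy1. Hb9 exceeded Thy1 by 0.73 ± 0.19 (1.66-fold, adjusted p = 0.0452 in limma). This was the least stable of the member calls against Thy1, lost in 6 of 16 alternatives, among them without either Hb9 replicate (adjusted p = 0.220 and 0.160), without Thy1 replicate 1 (0.284) and with the mean of all Gabrb1 probe sets (0.22, adjusted p = 0.423). Drd4 minus Thy1 was 0.54 ± 0.19 (adjusted p = 0.173 in limma). The second-brightest Gabrb1 probe set disagrees with the leading one in Hb9. It read 8.08 and 8.51 in Hb9, 9.01 and 8.32 in Drd4, and 8.31 and 8.0 in Thy1, a difference of 0.14 ± 0.24 as Hb9 minus Thy1 and 0.51 ± 0.24 as Drd4 minus Thy1, with neither passing.

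Gabrb2 was the member with the lowest Hb9 levels relative to Thy1. It encodes the most widespread beta subunit of the adult brain. Its leading probe set read 9.47 and 9.88 in Hb9, 10.32 and 9.75 in Drd4, and 10.38 and 10.27 in Thy1. The Hb9 arrays lie below both Thy1 arrays, and the Drd4 arrays overlap both other groups. Hb9 minus Thy1 was -0.65 ± 0.20, with a 95% interval of -1.10 to -0.20 before adjustment (adjusted p = 0.0859 in limma). It passed with the compared groups alone in the model (adjusted p = 0.0309). It also passed without Drd4 replicate 1 or 2 (adjusted p = 0.0314 and 0.0302). Without Hb9 replicate 1 it was -0.44 (adjusted p = 0.456). The 3 further bright Gabrb2 probe sets differed by -0.77, -0.74 and -0.76 as Hb9 minus Thy1, with adjusted p-values in limma of 0.113, 0.0520 and 0.0555 over all 34945 probe sets. As Drd4 minus Thy1 the same probe sets differed by -0.09, 0.00099 and -0.03. As Hb9 minus Drd4 they differed by -0.67, -0.74 and -0.74 and the leading one by -0.36, with none passing. The remaining, dimmer probe set differed by -0.12 as Hb9 minus Thy1.

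The ratio of Gabrb1 to Gabrb2 within an array is free of array-wide scale, and its change between groups was read as a description, chosen with the values known and with no test. With the leading probe sets the log2 ratio was -0.43 and -0.85 in Hb9, -1.25 and -1.13 in Drd4, and -2.23 and -1.80 in Thy1. The groups do not overlap, and the ratio was higher by 1.38 in Hb9 than in Thy1 and by 0.83 in Drd4 than in Thy1. With the second-brightest probe sets it was -0.52 and -0.75 in Hb9, -0.94 and -0.94 in Drd4, and -1.55 and -1.53 in Thy1. Over the 8 pairs of Gabrb1 and Gabrb2 probe sets above background on all arrays, the Hb9 ratios lay above the Thy1 ratios in 8 and the Drd4 ratios did so in 8. The Hb9 ratios lay above the Drd4 ratios in 7, and in the remaining pair these groups overlapped, with means of -1.38 in Hb9 and -1.37 in Drd4. The differences ran from 0.79 to 1.5 as Hb9 minus Thy1 and from 0.51 to 0.83 as Drd4 minus Thy1. These 8 pairs share arrays and probe sets. For single genes, arrays of both groups do not overlap in 54.2% of all genes for Hb9 against Thy1 and in 41.1% for Drd4 against Thy1. For Hb9 against Drd4 the share is 49.7%. No such share was computed for ratios. The size of a ratio itself has no meaning across probe sets, and its change shows only that the genes did not change equally.

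Among alpha subunits the ratio of Gabra4 to Gabra2 was -1.45 and -1.58 in Hb9, -3.57 and -3.22 in Drd4, and -1.84 and -2.25 in Thy1. The ratio of Gabra3 to Gabra2 was -1.29 and -1.68 in Hb9, -3.74 and -2.81 in Drd4, and -2.01 and -2.25 in Thy1. In both ratios Hb9 was highest and Drd4 lowest with no overlap, by 1.88 and 1.79 as Hb9 minus Drd4. The single genes Gabra4 and Gabra3 differed by 1.49 and 1.39 there. Gabra2, the gene divided by, differed by -0.39, which did not pass. The ratio of Gabra5 to Gabra2 was -1.46 and -1.94 in Hb9, -2.99 and -2.01 in Drd4, and -2.29 and -2.86 in Thy1, so the Drd4 and Thy1 arrays overlap. Like the beta ratio, these ratios were read as a description with no test. For single genes, arrays of both groups do not overlap in 49.7% of all genes for Hb9 against Drd4. That share is 54.2% for Hb9 against Thy1 and 41.1% for Drd4 against Thy1.

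**Figure D3:**
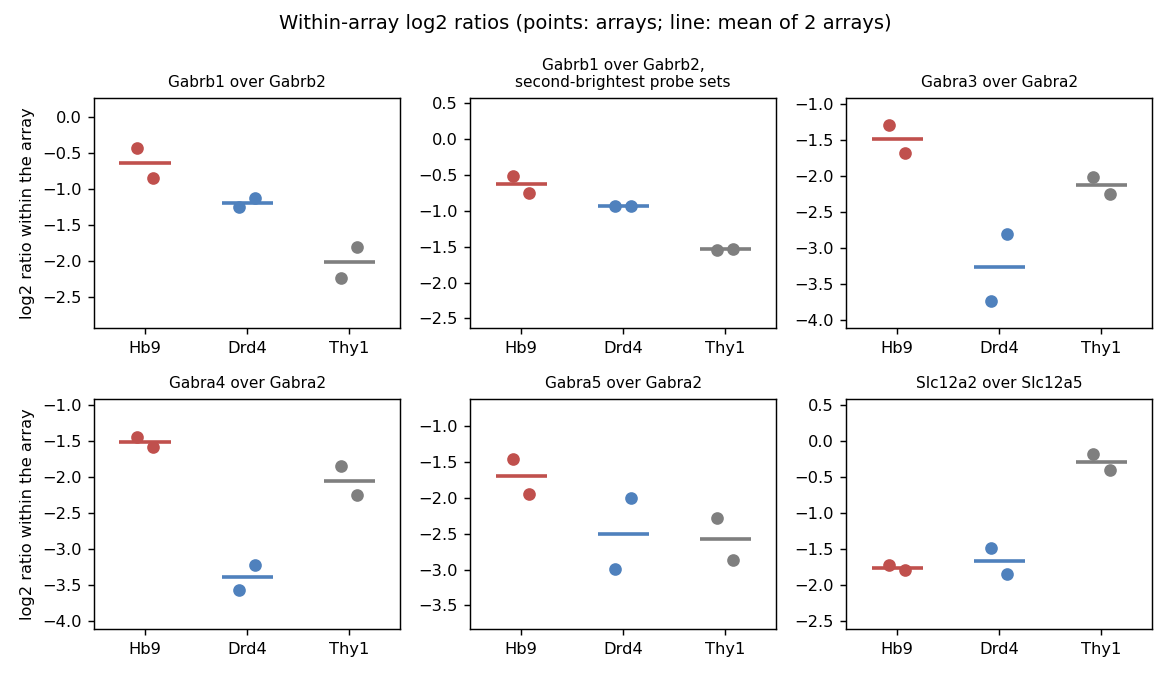
Within-array log2 ratios on each array (points) with the mean of 2 arrays (line) in Hb9, Drd4 and Thy1, for Gabrb1 over Gabrb2 (leading and second-brightest probe sets), 3 alpha subunit genes over Gabra2, and Slc12a2 over Slc12a5. Only the change between groups carries meaning. Both Gabrb1 ratios drawn fall in the order Hb9, Drd4, Thy1, and the Slc12a2 ratio is lower in Hb9 and Drd4 than in Thy1.

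The largest differences of any member were in Gabrg3, which encodes the gamma3 subunit. Gamma subunits complete the benzodiazepine site and hold receptors at synapses. Its leading probe set read 6.82 and 6.79 in Hb9, 9.0 and 8.59 in Drd4, and 7.17 and 7.18 in Thy1. Both Drd4 arrays lie well above the rest, and the Hb9 arrays lie below the Thy1 arrays. Drd4 exceeded Thy1 by 1.61 ± 0.17 (3.06-fold, adjusted p = 0.000401 in limma). Hb9 stood at -1.99 ± 0.17 against Drd4 (3.97-fold lower, adjusted p = 0.000122 in limma). Both calls held in all 16 alternatives, with values of 1.41 to 1.82 and of -2.19 to -1.40. Hb9 minus Thy1 was -0.38 ± 0.17 (adjusted p = 0.224 in limma). A brighter probe set, annotated to Gabrg3 and a second symbol, had Hb9 above Thy1 and is described among the flagged results below.

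Gabrg3 also had the most probe sets past the threshold, with 3 of its 4 both as Drd4 minus Thy1 and as Hb9 minus Drd4. These counts stand beside the shares of all probe sets given above. The second read 6.24 and 5.86 in Hb9, 8.5 and 7.94 in Drd4, and 6.17 and 6.19 in Thy1, so Drd4 was 4.11-fold higher than Thy1 (adjusted p = 0.000319 in limma over all probe sets). The third read 4.78 and 4.40 in Hb9, 5.80 and 6.26 in Drd4, and 4.10 and 3.68 in Thy1. It was not above background in Hb9 or Thy1, so Drd4 was at least 1.86-fold higher than Thy1, a bound set by the background guide on each Thy1 array (adjusted p = 0.000206 in limma). The fourth was at background on all arrays.

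**Figure D4:**
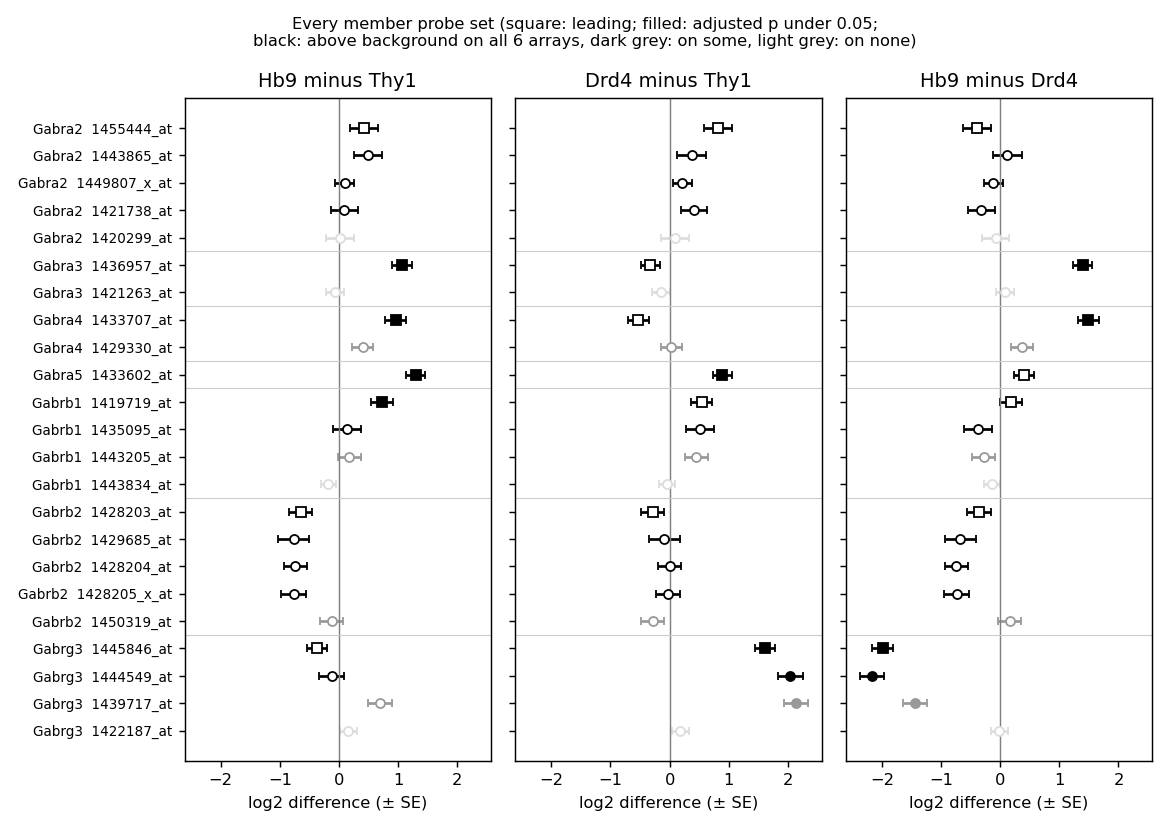
Log2 difference, with limma standard error, of all 23 probe sets of the 7 members in the 3 comparisons. Squares mark the leading probe set, filled symbols passed over all 34945 probe sets, and shades give how many arrays were above the background guide. The 3 Gabrg3 probe sets past the threshold agree in Drd4, while passing calls of Gabra3, Gabra4, Gabra5 and Gabrb1 rest on 1 probe set each.

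Of the other genes of the pathway, 8 further GABA-A subunit genes were measured. In Hb9 against Thy1 0 passed limma (1 at an unadjusted p under 0.05), in Drd4 against Thy1 1 was higher, and in Hb9 against Drd4 2 were lower. Over all genes 6.71%, 5.47% and 6.12% were called in these comparisons. No share of all genes was computed for an unadjusted p under 0.05. The one that rose in Drd4 was Gabrg1, the gamma1 subunit gene. It read 6.32 and 6.90 in Hb9, 7.95 and 7.86 in Drd4, and 6.79 and 7.05 in Thy1, so Drd4 exceeded Thy1 by 0.99 ± 0.20 (1.98-fold, adjusted p = 0.0174 in limma) and Hb9 stood at -1.29 ± 0.20 against Drd4 (adjusted p = 0.00468 in limma). Both Gabrg1 probe sets passed in these comparisons. The dimmer one was also called lower in Hb9 than in Thy1, by at least 1.52-fold, since it was not above background in Hb9 (adjusted p = 0.0378 in limma over all probe sets). The call against Thy1 was lost without Drd4 replicate 1 (adjusted p = 0.0536) or Thy1 replicate 1 (adjusted p = 0.127). Gamma1 and gamma3 transcripts were thus both highest in Drd4. Gabrr2, a rho subunit gene, had an adjusted p of 0.0321 in limma for Hb9 against Drd4, but only 1 of these 4 arrays was above background. No size of difference is given for it, and the call was lost without any of the 4.

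Glycine receptors share the chloride pore design, and Glra3 had its group order in common with Gabra3 and Gabra4. The 5 measured subunit genes included 1 higher in Hb9 and 1 lower in Drd4 against Thy1, both of them Glra3, and 2 higher in Hb9 than in Drd4. The shares of all genes called in these comparisons were 6.71%, 5.47% and 6.12%. Glra3 read 5.75 and 5.88 in Hb9, 4.35 and 4.05 in Drd4, and 5.04 and 5.28 in Thy1. It was not above background in Drd4, so Hb9 was at least 1.68-fold higher than Drd4 (adjusted p = 0.000214 in limma). In Thy1 it was above background on 1 of 2 arrays, so differences from Thy1 lie near the floor. The other Glra3 probe set was not above background in Hb9 or Thy1. Glra2, an embryonic type alpha subunit gene, was higher in Hb9 than in Drd4 by 0.67 ± 0.14 (adjusted p = 0.0238 in limma), a call lost without any of the 4 arrays compared. With Hb9 minus Thy1 at 0.65 ± 0.15 (adjusted p = 0.0312 in limma), the Glra3 call against Thy1 was lost without either Hb9 replicate (adjusted p = 0.109 and 0.146) or Thy1 replicate 1 (0.241). Drd4 was lower than Thy1 by at least 1.07-fold (adjusted p = 0.00392 in limma). With the mean of both Glra3 probe sets neither call against Thy1 passed (adjusted p = 0.211 and 0.125).

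Of 11 chloride transporter and regulator genes the one called was Slc12a2, which was lower in both lines. Over all genes 6.71% were called in Hb9 against Thy1 and 5.47% in Drd4 against Thy1. Slc12a2 read 9.22 and 9.15 in Hb9, 9.53 and 9.11 in Drd4, and 10.74 and 10.54 in Thy1. All 4 arrays of the lines lie below both Thy1 arrays. Hb9 minus Thy1 was -1.45 ± 0.17 (2.74-fold lower, adjusted p = 0.00153 in limma), and Drd4 minus Thy1 was -1.32 ± 0.17 (2.5-fold lower, adjusted p = 0.00103 in limma). Both calls held in all 16 alternatives, and all 3 Slc12a2 probe sets passed as lower in both comparisons. Between the lines the leading probe set did not pass (-0.13, adjusted p = 0.731 in limma). The 2 dimmer ones were called lower in Hb9 than in Drd4 (adjusted p = 0.0314 and 0.000828 in limma over all probe sets). Neither was above background in Hb9. The first was lower by at least 1.04-fold. For the second no fold is given, since it was above background on 1 of the 2 Drd4 arrays. The microglial, vascular and cell division signals given above fell in the same comparisons, and their part in this difference was not tested. Slc12a5, singled out here after its values were seen, read 10.95 and 10.94 in Hb9, 11.02 and 10.95 in Drd4, and 10.92 and 10.94 in Thy1. Its difference was 0.02 as Hb9 minus Thy1, with a 95% interval of -0.23 to 0.26, and 0.06 as Drd4 minus Thy1, with an interval of -0.19 to 0.30. The log2 ratio of Slc12a2 to Slc12a5 was -1.72 and -1.79 in Hb9, -1.49 and -1.84 in Drd4, and -0.18 and -0.40 in Thy1. The 10 other measured genes of the chloride list did not pass in any comparison.

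Of 24 scaffold, assembly and trafficking genes 0 passed limma in Hb9 (6 at an unadjusted p under 0.05) and 2 were higher in Drd4 against Thy1, and 1 was higher and 2 lower in Hb9 against Drd4, with list medians of 0.20, 0.16 and -0.02. Over all genes 6.71% were called in Hb9 against Thy1, 5.47% in Drd4 against Thy1 and 6.12% in Hb9 against Drd4. The share of all genes at an unadjusted p under 0.05 was not computed. Gphn, the gene of the scaffold protein gephyrin, singled out here after its values were seen, passed in no comparison and read 9.28 and 9.36 in Hb9, 9.31 and 9.26 in Drd4, and 9.14 and 9.09 in Thy1. Nlgn3, an adhesion protein gene of synapses, was higher in Drd4 than in Thy1 by 0.62 ± 0.13 (adjusted p = 0.0245 in limma), where 1 of 3 probe sets passed. That call was lost without any of the 6 arrays. Iqsec3, a gephyrin-binding exchange factor gene, was lower in Hb9 than in Drd4 (-0.87 ± 0.15, adjusted p = 0.00871 in limma), a call lost without Hb9 replicate 2 (adjusted p = 0.0905). Gabarap, a receptor trafficking gene, was higher in Hb9 than in Drd4 (0.73 ± 0.15, adjusted p = 0.0208 in limma), a call lost without either Hb9 replicate (adjusted p = 0.193 and 0.0749) or Drd4 replicate 1 (0.0952). Insyn2b, a gene of an inhibitory synapse protein, was not above background in Hb9 or Thy1. Drd4 was at least 1.11-fold higher than Thy1 for it (adjusted p = 0.0129 in limma), and Hb9 was lower than Drd4 (adjusted p = 0.0498 in limma), with no fold given. The first call was lost without Drd4 replicate 2, narrowly, or Thy1 replicate 1 (adjusted p = 0.120), and the second in 9 of 16 alternatives, with an adjusted p of up to 0.335 without Hb9 replicate 1. Of 8 genes of GABA synthesis, packaging, uptake and breakdown 0 passed limma in any comparison, and 2 had an unadjusted p under 0.05 for Hb9 against Thy1.

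**Figure D5:**
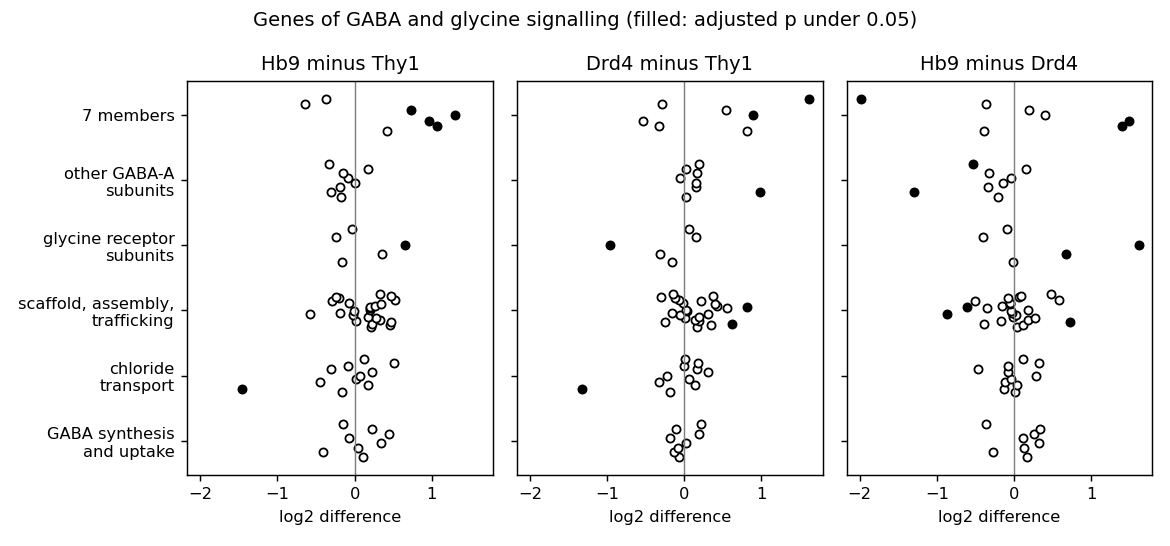
Log2 differences of the 7 members and of 5 lists of related genes in the 3 comparisons, 1 point per gene, filled where the adjusted p was under 0.05. Outside the members the widest points are Slc12a2 among chloride transporters (-1.45 in Hb9 and -1.32 in Drd4 against Thy1), Glra3 among glycine receptor genes and Gabrg1 among other GABA-A subunits.

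The genes whose pattern over the 6 arrays was closest to a member were found by Euclidean distance between log2 values centred on each gene's own mean, among 13233 named genes above background. They were Dnajc15 (0.15) and Rpl14 (0.16) for Gabra3, Lifr (0.24) and Sh3bp4 (0.26) for Gabra4, and Psd3 (0.31) and Barhl2 (0.36) for Gabra5. For Gabrb1 they were Pde7a (0.24) and Vps13b (0.24), and for Gabrg3 they were Flrt3 (0.28) and Pde1c (0.29). Flrt3 read 7.08 and 7.21 in Hb9, 9.48 and 9.16 in Drd4, and 7.58 and 7.43 in Thy1. That is the order of groups in the leading Gabrg3 probe set, on which the distance was taken. In the second Gabrg3 probe set the Hb9 and Thy1 arrays overlap. With 3 groups of 2 arrays many genes share an order, and these are given as a description.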

How the data were processed

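RNA of sorted retinal cells was amplified in 2 rounds and labelled with biotin, per the labels' protocols. The deposited table gives 1 linear intensity per probe set and array. The sources used here do not give the authors' background correction, probe summary or normalisation. All values were above 0 and log2 was taken with no offset. Probe sets were named by the platform annotation: of 45101, 64 are controls, 34945 map to 1 gene, 932 to several and 9160 to none, and 34741 were matched to RefSeq by Entrez identifier. The probe set with the highest mean per gene was kept, which left 18193 genes.

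Groups were fitted in limma 3.58.1 (R 4.3.3) with 3 residual degrees of freedom, moderation with an intensity trend, two-sided tests and Benjamini-Hochberg adjustment at 0.05. Simulated data, with independent genes and a spread drawn from the fitted model, were used only to check the mean estimates of known differences. They do not measure false calls in the real arrays. Precision is limited by the number of arrays. The p-values rest on the spread between replicate arrays, pooled over the 3 groups and moderated towards a trend over all genes. That trend carries 6.98 degrees of freedom beside the 3 residual ones. Named pathway genes are up to 3 per list and comparison past the threshold, ranked by size of difference, and the nearest-pattern genes are 2 per member called. Lists were GABA-A, GABA-B and glycine receptor subunits, scaffold and trafficking genes, chloride transporters, GABA metabolism, and markers of retinal and other cell types. Of the GABA-B list 1 gene was measured and it did not pass. Members and lists were chosen with earlier results of these data known. Some subunit genes are not analysed here. The 16 alternatives covered scaling, probe set summary, a dim-gene filter, moderation, weights, an offset, the groups in the model, a replicate block and each array left out; for pathway genes they were chosen after seeing the data.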

Additional observations from a re-analysis of the deposited data

Results flagged for a closer look

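A probe set outside every comparison above carries the symbols Gabrg3 and 6330406O05Rik in the platform annotation and was therefore not assigned to 1 gene. RefSeq lists 6330406O05Rik as an older name of Gabrg3. It read 8.56 and 8.49 in Hb9, 10.07 and 10.15 in Drd4, and 8.27 and 8.33 in Thy1, so its signal in Drd4 was above that in Thy1 by 1.81 on the log2 scale (3.50-fold). As Drd4 minus Thy1 this is the direction of the Gabrg3 probe sets that passed, and it was not tested itself. Its Hb9 arrays lie above its Thy1 arrays, by 0.23 in the mean. In the leading Gabrg3 probe set that difference was -0.38.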

How the results depend on the processing

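Of 336 member results over 16 alternatives, 318 kept direction and side of the threshold, 11 lost a call, 4 gained one and 3 changed sign. The sign changes were in uncalled differences, namely Gabrg3 as Hb9 minus Thy1 (0.088) and Gabrb1 as Hb9 minus Drd4 (-0.15) with the mean of all probe sets, and Gabrb1 as Hb9 minus Drd4 without Drd4 replicate 2 (-0.033, in a range of -0.033 to 0.41 over arrays left out). Among pathway genes Slc12a5 was -0.019 as Hb9 minus Thy1 with quantile normalisation, and Slc12a2 was 0.078 as Hb9 minus Drd4 without Drd4 replicate 1, in a range of -0.34 to 0.078, while the mean of its probe sets gave -0.84 there, a gained call (adjusted p = 0.0137). With the mean of all probe sets 2 members passed in Hb9 against Thy1, and with the compared groups alone 8 member probe sets passed against 4. Leaving out 1 array, members called ranged from 2 to 5 for Hb9 minus Thy1, from 1 to 2 for Drd4 minus Thy1 and from 3 to 3 for Hb9 minus Drd4. Member probe sets called ranged from 2 to 8, 3 to 4 and 5 to 7 in that order, and genes called from 315 to 1633, 666 to 922 and 411 to 1244, against 1220, 995 and 1113 with all arrays. For Hb9 minus Thy1 leaving out Hb9 replicate 1 gave 315 genes, Hb9 replicate 2 gave 441 and Thy1 replicate 1 gave 380, and 30.5%, 32.0% and 31.8% of those genes were higher, against 52.5% with all arrays, 44.1% with quantile normalisation and 61.4% with median centring. For Hb9 minus Drd4 leaving out Hb9 replicate 1 gave 411, Hb9 replicate 2 gave 532 and Drd4 replicate 1 gave 689. With the replicate block Gabrb1 in Hb9 against Thy1 was lost (adjusted p = 0.0647), and no other member call changed. Same-numbered arrays correlated in their deviations at -0.28 for Hb9 and Drd4, -0.19 for Hb9 and Thy1 and 0.37 for Drd4 and Thy1. The main comparisons did not treat the numbers as pairs. Whether same-numbered arrays shared a batch was not tested. The cause of the changes between alternatives was not tested. The 2 arrays per group limit every comparison.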
